A study of Mus musculus with 9 samples.

Results

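The proteasome is the barrel-shaped protease that destroys proteins tagged with ubiquitin. Its subunits were read here as mRNA in mouse cerebral cortex after a transient stroke, as every gene of the deposited table whose symbol starts with Psma, Psmb, Psmc, Psmd, Psme or Psmf and a number. The rule found 46 genes of the 37893 in the table, after 3 processed pseudogenes (Psma5-ps, Psmb7-ps2 and Psmb6-ps2) were set aside by name, and it uses no measured value. Of the 46 genes, 44 have a known part in the proteasome or its assembly or bind it as regulators. The other 2, Psmc3ip and Psme2b, only share the naming pattern: Psmc3ip is named for binding the subunit encoded by Psmc3 and acts in meiotic recombination, and Psme2b is a second copy of the activator gene Psme2.

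Each of 3 groups held 3 mice, with 1 library a mouse. The sham_WT group had wild-type mice after a sham operation, and its tissue is given as cerebral cortex. Wild-type IR_WT mice underwent tMCAO, a transient blockage of the middle cerebral artery, with 60 min of ischemia and 1 day of reperfusion. IR_Matn3_ko mice lack matrilin-3, an extracellular matrix protein, and had the same operation. Both operated groups were sampled in the cortex around the infarct, so the sampled region differs from sham_WT as well as the operation. The study asked how matrilin-3 holds back the glial scar, and compared IR_WT with each of the other groups. Knockout mice with a sham operation were not analysed here, and a genotype effect present before ischemia therefore cannot be told apart from one on the response to it. The labels give no age, sex or strain for the mice used here.

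The core of the proteasome, the 20S particle, is a stack of outer rings of alpha subunits and inner rings of beta subunits, and 3 of the beta subunits cut protein. The 19S cap has a ring of ATPases that unfold the substrate and a lid of non-ATPase subunits that recognise and strip ubiquitin. Interferons, above all interferon gamma, induce replacement cutting subunits: Psmb8 takes the place of Psmb5, Psmb9 that of Psmb6 and Psmb10 that of Psmb7. Together with the 11S activator made of Psme1 and Psme2, these form the immunoproteasome, which favours peptides for display on MHC class I molecules. In the healthy brain the constitutive form predominates, and microglia and infiltrating leukocytes are known sources of the immunoproteasome.

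Total counts ran from 53400376 to 68370527 per library. Of all 17247 genes tested, 438 were higher and 263 lower in IR_WT than in sham_WT at an adjusted p under 0.05 (edgeR's quasi-likelihood test, Benjamini-Hochberg), and the split was 586 to 155 with no scaling factors. For IR_Matn3_ko against IR_WT the count was 0 in each direction, with 2302 genes at an unadjusted p under 0.05. DESeq2 called 374 higher and 295 lower in that comparison. The targeted gene Matn3 had 0, 4 and 26 counts in sham_WT, 33, 12 and 48 in IR_WT, and 0, 17 and 0 in IR_Matn3_ko. It was too low in wild-type cortex to check the knockout labels, and the second of those libraries, with 17 counts, is called below the library labelled IR_Matn3_ko 2. Markers of cortical neurons, between 6090 and 10495 CPM (counts scaled to a common library total) summed over 10 genes, were present in every library. Markers of the small intestine, a tissue foreign to cortex, split the libraries into 2 sets: all 15 genes were higher in each of IR_WT 2, IR_WT 3 and the 3 IR_Matn3_ko libraries than in any of the other 4, with sums of 109 to 496 CPM against 5.26 to 8.48 CPM. Markers of B cells split the same libraries the other way: all 12 were higher in sham_WT and IR_WT 1, with sums of 210 to 309 CPM against 11.6 to 25.4 CPM. No marker of either list was at 0 in every library. The sets run along with the groups, with IR_WT divided between them, and fits with the set as a term are given where they change a result.

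The members were compared with each other on a per-length scale, CPM per kilobase of each gene's principal transcript, averaged over the 9 libraries. The deposited FPKM values divide by a longer length: the length they imply was between 1.10 and 3.70 times that transcript. The highest levels belonged to 3 ATPases of the 19S cap, Psmc5 (95.1 CPM per kilobase), Psmc1 (89.5) and Psmc3 (86.6). Their ranges over libraries, for example 86.7 to 106 CPM per kilobase for Psmc5 and 75.8 to 108 for Psmc1, overlapped, so their order is not resolved. On this scale Psma3 at 20.9, Psmd11 at 22.3 and Psma2 at 24.6 CPM per kilobase were the lowest of the 31 constitutive subunits. The constitutive subunits thus differed in mRNA level, although the assembled particle holds most of them in equal number. On the same scale all 3 inducible cutting subunits were lower than every constitutive subunit: Psmb10 had 14.6, Psmb8 3.82 and Psmb9 1.92 CPM per kilobase. The subunits they replace had 63.6 (Psmb7), 40.7 (Psmb5) and 62.7 CPM per kilobase (Psmb6). These orders depend on the length used. By mean FPKM Psmb10 (10.2) was above the constitutive Psmd11 (9.09), and Psmb5 (37.1) was above Psmb6 (24.4) and Psmb7 (19.7). Psme1 and Psme2, the interferon-inducible 11S activator, had 24.2 and 15.5 CPM per kilobase, below Psme3, the nuclear 11S activator, at 42.2. The assembly chaperones of the 19S base, Psmd5, Psmd9 and Psmd10, lay between 8.68 and 10.7 CPM per kilobase.

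**Figure D1:**
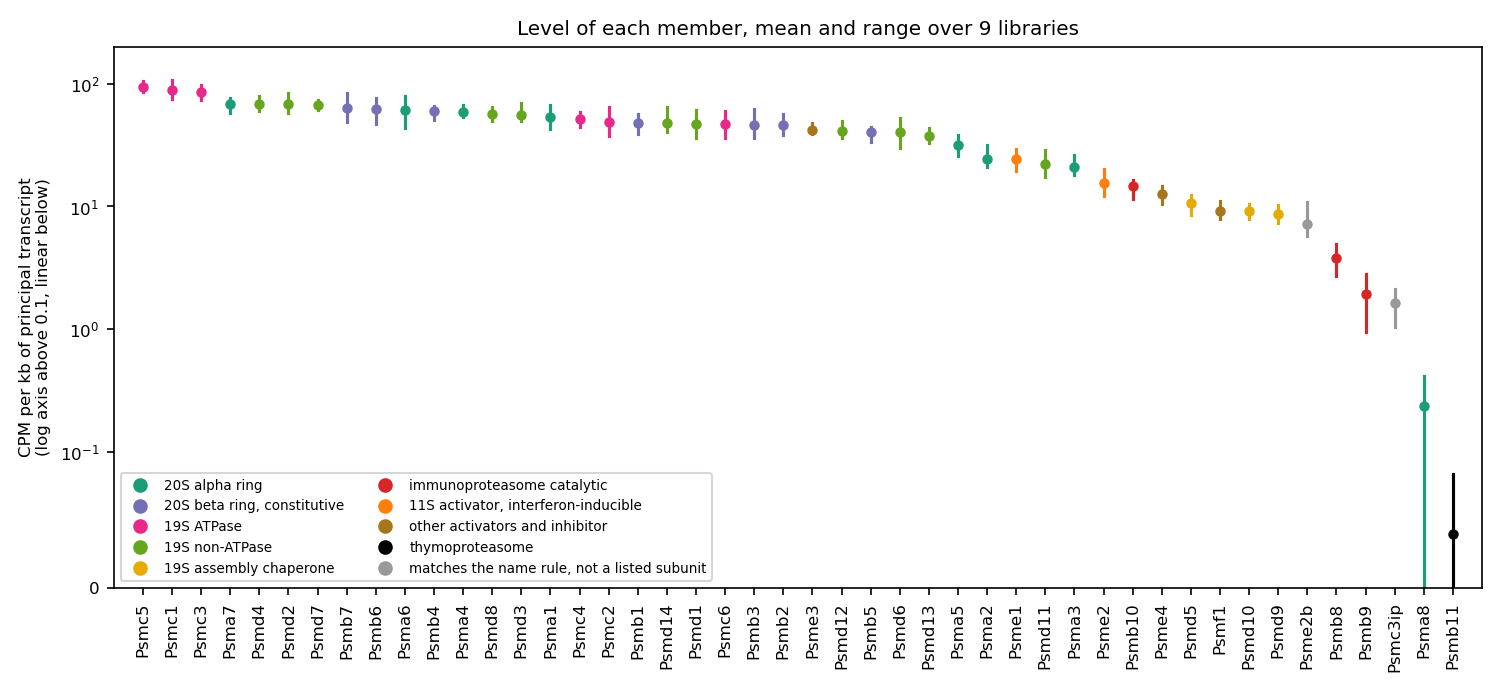
Level of each of the 46 members as CPM per kilobase of the principal transcript (log axis above 0.1, linear below), ordered by mean; the point is the mean and the line the range over the 9 libraries, coloured by role. Constitutive 20S and 19S subunits fill the left of the plot, from 95.1 down to 20.9 CPM per kilobase, and Psmb8 and Psmb9 lie at 3.82 and 1.92.

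Psma8 and Psmb11, the tissue-restricted members, did not reach the 0.5 FPKM in 3 libraries that the test required. Psma8, the alpha subunit of the testis proteasome, had between 13 and 50 counts in 8 libraries and 0 in IR_WT 2, a count that allows up to 0.0439 CPM. Psmb11, the cutting subunit of the thymus cortex, had 7 to 18 counts in 8 libraries and 0 in IR_Matn3_ko 1. Counting limits cover counting error only. The other 44 members were tested.

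Psmd5 was the only member called between IR_WT and sham_WT. The gene lies at chr2:34849734-34874968 on the minus strand (GRCm38, as are the coordinates of the other genes). It encodes a chaperone that holds 19S ATPases during assembly of the cap and leaves before the particle is finished. Its level was 38.8, 37.7 and 38.9 CPM in sham_WT, 54.5, 46.2 and 48.9 CPM in IR_WT, and 51.8, 53.6 and 54.9 CPM in IR_Matn3_ko. Every operated library was above every sham library, and the sham libraries lay close together. The fitted log2 fold change in IR_WT was 0.37 ± 0.08 (SE), a 1.295-fold rise with a 95% interval of 1.15 to 1.46 fold and an adjusted p of 0.0332 by edgeR's quasi-likelihood test. Of all genes tested, 4.06% were called by that test, 2.54% higher and 1.52% lower, so 1 of 44 members is near the background. The call was lost when any of 6 libraries was left out, each of the 3 sham_WT libraries, IR_WT 1, IR_WT 3 or IR_Matn3_ko 3, with adjusted p-values from 0.0558 to 0.116 by the same test, while the log2 fold change stayed between 0.31 and 0.43 over all 9 such fits. With the library set as a term it was 0.50, but that comparison rests on IR_WT 1, the IR_WT library with the highest Psmd5. Psmd5 overlaps Cutal on the opposite strand by 573 bp, and the sources used here do not say whether counting used strand. IR_Matn3_ko did not differ detectably from IR_WT in Psmd5 (log2 fold change 0.10 ± 0.08, 95% interval 0.948 to 1.21 fold, adjusted p = 0.639).

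The stretch of DNA before the RefSeq start of Psmd5 is printed because it is the member that was called. It lies at chr2:34870963-34871107 on the minus strand (RefSeq, GRCm38.p6) and holds 145 bases. The annotated gene reaches further upstream, to 34874968, so the stretch lies inside its outermost span but outside any annotated exon, and the other 105 bases of the window, which an annotated exon covers, are left out. Capitals mark CTCGCGAG, the palindromic core of the CGCG element, known from promoters of housekeeping genes. It was searched for after the sequence had been read.
Psmd5: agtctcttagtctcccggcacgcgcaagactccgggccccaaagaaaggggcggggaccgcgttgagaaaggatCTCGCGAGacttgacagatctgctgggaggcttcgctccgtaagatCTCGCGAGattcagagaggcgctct
The core stood 71 to 64 and again 25 to 18 bases before the start. Among the 250-base windows of 39 members in the RefSeq table, Psmd5 was the only one to hold it, and 0.761% of all 32851 windows held it. A match is a description of letters and says nothing of a factor bound there.

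The constitutive subunits were slightly higher in IR_WT than in sham_WT as a set, and none passed the test singly. Of the 31, 30 had a fitted log2 fold change above 0, against 50.3% of all genes, and their median was 0.16 against 0.00 for all genes. The median stayed positive under TMM scaling, median-ratio scaling and no scaling factors, and ran from 0.11 without sham_WT 2 to 0.19 without sham_WT 3 as single libraries were left out. With the library set as a term, when the comparison rests on IR_WT 1, it was 0.12. In 12 of the 31, all IR_WT libraries were above all sham_WT libraries, and in none were all below; of all genes tested, 13.1% were higher in that sense and 12.5% lower. In the same comparison oligodendrocyte markers moved the other way from the set: 6 of 8 were called lower in IR_WT by edgeR, against 1.52% of all genes, the 8 had a median of -0.86 (log2), and their sums were 3399 to 5273 CPM in sham_WT and 2322 to 2887 CPM in IR_WT. Their part in the proteasome values was not tested. Members of one complex move together and are not independent observations, so the counts carry no p. In bulk tissue, less RNA of a gene per cell and fewer cells of a type cannot be told apart.

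The 19S cap held most of the non-overlapping genes. Its 6 ATPases and 11 non-ATPase subunits are also the larger part of the 31 constitutive subunits. All 11 non-ATPase subunits of the lid and base had fold changes above 0, and 8 of them were higher without overlap between groups. Of all genes tested, 50.3% were above 0 and 13.1% were higher without overlap. None of the 11 was called. Psmd2, a scaffold of the 19S base and the subunit with the highest count, had 173, 170 and 188 CPM in sham_WT and 214, 202 and 200 CPM in IR_WT (log2 fold change 0.21 ± 0.09, adjusted p = 0.214 by edgeR). Psmd1, the other base scaffold, had 123, 113 and 131 CPM against 162, 141 and 144 CPM (0.29 ± 0.10, adjusted p = 0.165). Its annotated gene overlaps 4 other genes, among them Htr2b on the opposite strand. Psmd4, a ubiquitin receptor, had 79.5, 80.1 and 82.1 CPM against 87.6, 95.7 and 93.8 CPM (0.20 ± 0.07, adjusted p = 0.176). The highest sham library lay below the lowest IR_WT library in all 3 genes.

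Psmd11 and Psmd12, scaffold subunits of the lid, differed in the same way without passing the test. Psmd12 had 68.7, 70.9 and 72.5 CPM in sham_WT and 79.5, 79.8 and 79.9 CPM in IR_WT (0.17 ± 0.08, adjusted p = 0.266 by edgeR), and the IR_WT libraries were nearly equal. Psmd11 had 49.5, 56.7 and 57.5 CPM against 67.2, 60.98 and 62.3 CPM (0.22 ± 0.11, adjusted p = 0.301). Psmd14, the lid enzyme that cuts ubiquitin chains off the substrate, had 70.2, 62.5 and 69.5 CPM against 73.2, 74.2 and 72.4 CPM (0.12 ± 0.12). Psmd8 had the smallest fitted value of the 11, with 82.0, 76.6 and 84.6 CPM against 80.9, 80.9 and 88.2 CPM (0.04 ± 0.07), and its groups overlapped. Of the other assembly chaperones, Psmd9 had 19.2, 20.8 and 21.8 CPM against 22.2, 25.4 and 22.5 CPM without overlap, and Psmd10 had 14.2, 11.3 and 12.01 CPM against 13.4, 14.6 and 13.1 CPM with overlap.

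Among the 6 ATPases, Psmc2 had the largest fitted difference. It had 73.2, 67.2 and 77.9 CPM in sham_WT and 89.5, 90.2 and 88.7 CPM in IR_WT, so that the groups did not overlap (0.30 ± 0.10, adjusted p = 0.147 by edgeR). The ATPases had a median of 0.14 and a range of 0.10 to 0.30. Psmc5, the ATPase with the highest level per length, had 118, 117 and 128 CPM against 114, 136 and 139 CPM, and its groups overlapped. In the outer ring of the 20S core Psma1 had 54.3, 51.5 and 59.9 CPM against 66.5, 64.7 and 69.7 CPM (0.28 ± 0.09, adjusted p = 0.137), the only alpha subunit whose groups did not overlap. The 7 tested alpha subunits had a median of 0.13, from 0.04 for Psma7 to the value of Psma1. Psmb3, a structural beta subunit, was the only beta subunit of that kind, with 30.0, 27.7 and 28.8 CPM against 30.9, 34.7 and 38.6 CPM (0.27 ± 0.11, adjusted p = 0.225).

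**Figure D2:**
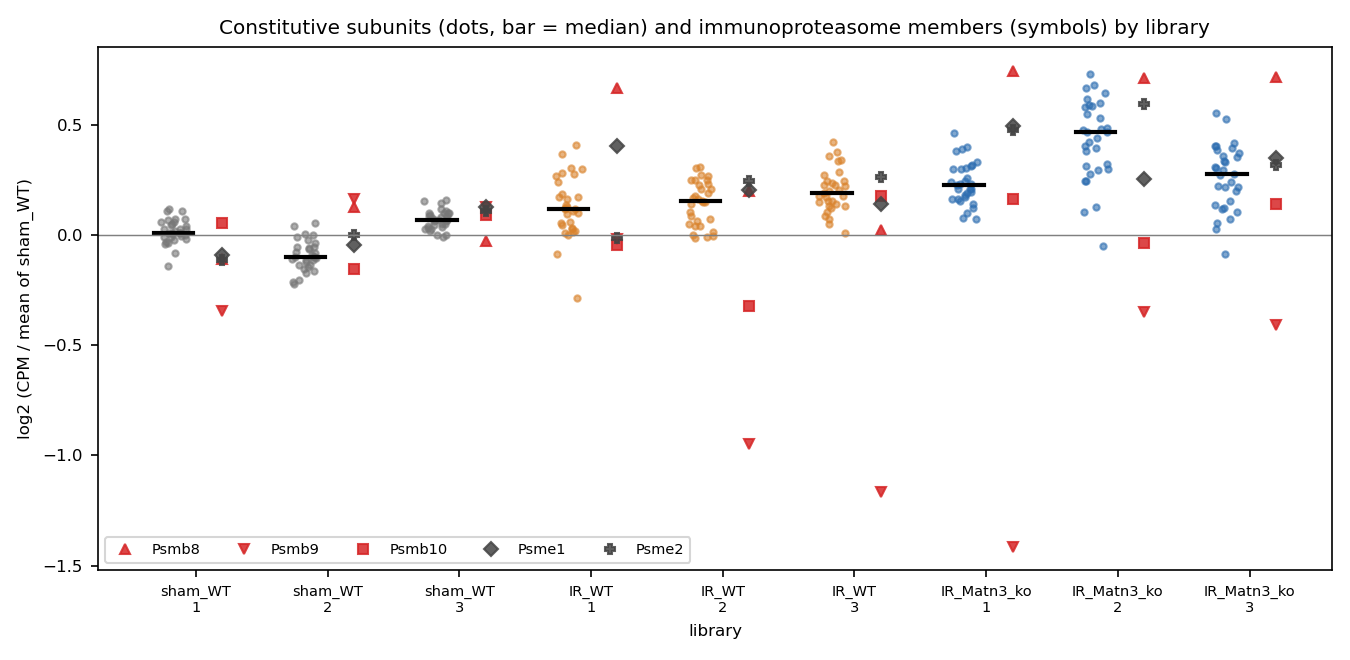
For each of the 9 libraries, log2 of CPM over the sham_WT mean: dots are the 31 constitutive subunits with their median as a bar, and symbols are the 5 immunoproteasome members. The medians are -0.10 to 0.07 in sham_WT, 0.12 to 0.19 in IR_WT and 0.22 to 0.46 in IR_Matn3_ko, while Psmb9 falls below the constitutive dots in 6 libraries.

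Between IR_Matn3_ko and IR_WT no member was called by edgeR. Of the 44 tested, 6 had an unadjusted p under 0.05, all higher in IR_Matn3_ko, and 6.59% of all genes were higher at that p. DESeq2 called 1 member, Psmb6. Of all genes tested, 0% were called by edgeR and 3.88% by DESeq2, in either direction. Again 30 of 31 constitutive subunits had a fitted log2 fold change above 0, against 49.8% of all genes, with a median of 0.15 against -0.00128. In 9 of the 31 all IR_Matn3_ko libraries were above all IR_WT libraries, and in none were all below, against 9.42% and 8.44% of all genes. This comparison shares the IR_WT libraries with the one above.

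By role, the medians in IR_Matn3_ko against IR_WT were 0.15 for the 7 alpha subunits, 0.16 for the 7 constitutive beta subunits, 0.12 for the 6 ATPases, 0.16 for the 11 non-ATPase subunits and 0.02 for the 3 assembly chaperones. Psmd8, a lid subunit that differed little after ischemia in wild-type mice, had 96.0, 99.5 and 94.1 CPM in IR_Matn3_ko, above all 6 wild-type libraries given above (0.21 ± 0.07, adjusted p = 0.252 by edgeR). Psmd3, another lid subunit, had 108, 108 and 107 CPM in sham_WT, 121, 110 and 120 CPM in IR_WT and 123, 149 and 141 CPM in IR_Matn3_ko (0.23 ± 0.08 against IR_WT, adjusted p = 0.274). Psmb3 had 37.8, 47.8 and 42.4 CPM in IR_Matn3_ko, overlapping IR_WT (0.30 ± 0.11, adjusted p = 0.295). The fitted value of Psmc5 was -0.06 ± 0.09, the only constitutive subunit below 0, and it was 0.01 with no scaling factors. Its IR_Matn3_ko libraries had 134, 117 and 123 CPM.

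One library carried much of that difference. The library labelled IR_Matn3_ko 2 had the highest level of all 9 in 27 of the 31 constitutive subunits, and its median subunit stood 1.38-fold above the sham_WT mean, against 1.17-fold and 1.21-fold in IR_Matn3_ko 1 and 3. Without it the median log2 fold change of the constitutive subunits was 0.08 in place of 0.15, and 28 of 31 were above 0. The same library had the lowest summed markers of cortical neurons, 6090 CPM against 8115 to 10495 CPM in the other 8 libraries, and of astrocytes, 2264 CPM against 3357 to 4638 CPM. In the opposite direction, sham_WT 2 had the lowest level in 24 of the 31. It had the highest summed oligodendrocyte markers, 5273 CPM against 2196 to 3910 CPM. Its immediate early genes, which handling and other stimuli can raise, were also the highest, at 601 CPM against 281 to 382 CPM. In 3 of 10 neuronal markers (4 with TMM scaling), 3 of 8 astrocyte and 3 of 8 oligodendrocyte markers all IR_Matn3_ko libraries were below all IR_WT libraries, against 8.44% of all genes. They were all above in 1 of 8 oligodendrocyte markers and 3 of 8 immediate early genes (0 and 2 with TMM scaling), against 9.42% of all genes. The immediate early sums were 294 to 311 CPM in IR_WT and 370 to 382 CPM in IR_Matn3_ko. The part of cell composition and handling in the proteasome differences was not tested.

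Psmb6, the caspase-like cutting subunit of the constitutive core, had the smallest p of the members in this comparison. The gene lies at chr11:70525367-70527858 on the plus strand. It had 46.6, 37.2 and 44.9 CPM in sham_WT, 43.2, 47.5 and 50.7 CPM in IR_WT, and 59.1, 59.2 and 61.8 CPM in IR_Matn3_ko. Every IR_Matn3_ko library was above every other library, with a spread under that of either wild-type group. The log2 fold change against IR_WT was 0.35 ± 0.10 (95% interval 1.09 to 1.48 fold), with an adjusted p of 0.191 by edgeR and 0.0477 by DESeq2. Psmb7, the trypsin-like cutting subunit, had 63.1, 56.5 and 70.6 CPM, then 65.9, 73.3 and 74.1 CPM, and in IR_Matn3_ko 82.6, 97.1 and 80.9 CPM (0.29 ± 0.11, adjusted p = 0.283). Its IR_Matn3_ko libraries also lay above all others. Psmb5, the chymotrypsin-like cutting subunit, did not share this: it had 38.8, 33.4 and 38.7 CPM, then 30.3, 36.7 and 38.3 CPM, and in IR_Matn3_ko 39.0, 39.7 and 34.8 CPM. The groups of Psmb5 overlapped in both comparisons, with log2 fold changes of -0.07 ± 0.11 and 0.11 ± 0.11 (adjusted p of 0.765 and 0.735 by edgeR); the first was 0.00 with no scaling factors and 0.02 without IR_WT 1. In IR_Matn3_ko against IR_WT the 95% intervals of the 3 constitutive cutting subunits overlapped, at 0.908 to 1.28 fold for Psmb5 and 1.04 to 1.44 fold for Psmb7. No test compared the 3 with each other, so a difference between them is not shown.

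**Figure D3:**
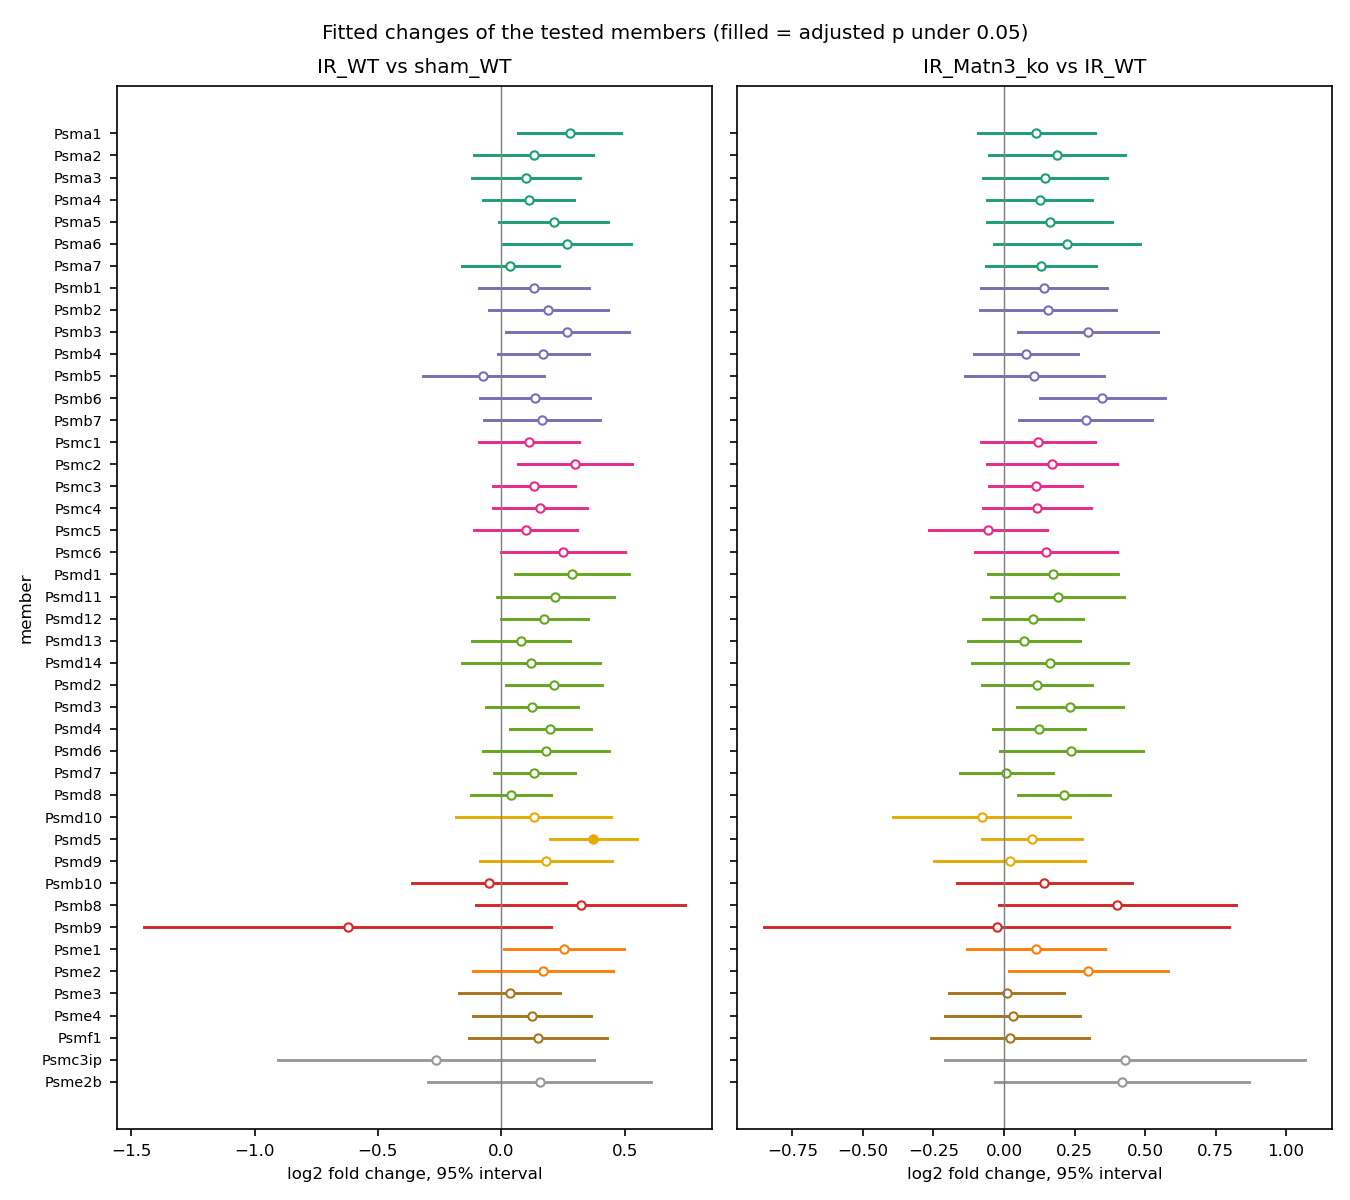
Fitted log2 fold change with its 95% interval for the 44 tested members, in IR_WT against sham_WT (left) and IR_Matn3_ko against IR_WT (right), coloured by role as in the plot of levels; a filled point marks an adjusted p under 0.05. Psmd5 on the left is the only filled point, at 0.37, and Psmb9 has the widest intervals, from -1.45 to 0.20 on the left.

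DNA before the starts of Psmb5 and Psmb6 is shown because the pair differ in the values above and share a motif. Capitals mark TGACNNNGC, the core of the antioxidant response element, which the factor NRF1 (gene Nfe2l1) is known to bind in proteasome promoters. The Psmb5 stretch is chr14:54618023-54618245 on the minus strand, 250 to 28 bases before the RefSeq start, and that of Psmb6 is chr11:70525107-70525356 on the plus strand, the 250 bases before its start (RefSeq, GRCm38.p6).
Psmb5: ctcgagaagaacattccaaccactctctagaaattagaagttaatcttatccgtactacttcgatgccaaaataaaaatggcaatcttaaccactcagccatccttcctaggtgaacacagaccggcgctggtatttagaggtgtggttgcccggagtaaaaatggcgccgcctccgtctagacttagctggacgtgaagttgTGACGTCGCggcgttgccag
Psmb6: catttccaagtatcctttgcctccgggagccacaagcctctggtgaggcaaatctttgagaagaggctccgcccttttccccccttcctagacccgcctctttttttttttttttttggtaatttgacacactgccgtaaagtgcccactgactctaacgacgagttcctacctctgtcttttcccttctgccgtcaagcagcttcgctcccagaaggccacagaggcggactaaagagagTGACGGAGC
The match stood 47 to 39 bases before the start in Psmb5 and 9 to 1 bases before it in Psmb6. On either strand, 5 of the 39 members with a RefSeq window held this core (Psmb5, Psmb6, Psmc6, Psmd9 and Psmd12), and 10.2% of all windows did. GAAANNGAA, from the interferon-stimulated response element, was in the windows of Psmb3, Psmd4 and Psmd9 and in 7.13% of all windows. TTCNNNGAA, the interferon gamma activated site, was in that of Psmb8 alone among the members, as TTCCCAGAA 97 to 89 bases before the RefSeq start, and in 7.02% of all windows. The windows of Psmb8 and Psmb9 fall within longer first exons of the annotation and are not printed. Of the 46 members, 7 had no window in the table: Psma8, Psmb1, Psmb2, Psmb7, Psmc3, Psmd3 and Psmd7.

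The immunoproteasome genes had fitted values of both signs in IR_WT against sham_WT, and a difference in direction between them was not tested. Psmb8 and the 11S activator genes had higher group means in IR_WT than in sham_WT, Psmb10 had a nearly equal one and Psmb9 a lower one, and none was called. Psmb8 (chr17:34197721-34201454, plus strand) and Psmb9 (chr17:34181987-34187764, minus strand) are neighbours in the MHC region, and Psme1 (chr14:55578123-55581528) and Psme2 (chr14:55587441-55591113) are neighbours on another chromosome. Psmb8, the inducible counterpart of Psmb5, had 4.44, 5.22 and 4.70 CPM in sham_WT, 7.59, 5.50 and 4.86 CPM in IR_WT, and 8.02, 7.84 and 7.85 CPM in IR_Matn3_ko. IR_WT 1 and IR_WT 2 were above all sham libraries and IR_WT 3 was within their range, whereas all IR_Matn3_ko libraries were above all others and close together. The log2 fold changes were 0.32 ± 0.19 (95% interval 0.932 to 1.67 fold, adjusted p = 0.395) and 0.40 ± 0.19 (0.987 to 1.77 fold, adjusted p = 0.395) in the 2 comparisons by edgeR. Leaving out IR_WT 1 moved them to 0.11 and 0.61, leaving out IR_WT 3 to 0.45 and 0.27, and the library set term to 0.67 and 0.61. Psmb8 overlaps Gm20496 on the opposite strand.

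Psmb9, the inducible counterpart of Psmb6, had lower group means after ischemia. It had 2.68, 3.82 and 3.72 CPM in sham_WT, 3.36, 1.77 and 1.52 CPM in IR_WT, and 1.28, 2.67 and 2.56 CPM in IR_Matn3_ko. IR_WT 1 was within the sham range, IR_WT 2, IR_WT 3 and IR_Matn3_ko 1 were below it, and the libraries labelled IR_Matn3_ko 2 and 3 lay close to sham_WT 1. By FPKM these 2 libraries, at 0.694 and 0.652, were above sham_WT 1 at 0.627. The log2 fold change in IR_WT was -0.62 ± 0.37 (95% interval 0.367 to 1.15 fold, adjusted p = 0.398 by edgeR). It ran from -1.05 without IR_WT 1 to -0.41 without IR_WT 3, and was -0.02 with the library set as a term, which then rests on IR_WT 1. Against IR_WT that of IR_Matn3_ko was -0.03 ± 0.37, and it was 0.04 with no scaling factors, 0.40 with the library set as a term and 0.41 without IR_WT 1. B cells express the immunoproteasome constitutively. Of the 4 libraries with high B cell sums, given above, sham_WT 2, sham_WT 3 and IR_WT 1 had the highest Psmb9 of all 9 and sham_WT 1 did not stand apart, and the part of B cells in the values was not tested. Markers of cartilage, another tissue foreign to cortex, had sums of 293, 299 and 269 CPM in sham_WT 2, sham_WT 3 and IR_WT 1. Their sum was 60.0 CPM in sham_WT 1 and 35.0 to 48.7 CPM in the remaining libraries. The part of cartilage was not tested either. T cell markers had sums of 20.99 to 26.9 CPM in sham_WT, 21.1, 12.5 and 15.7 CPM in IR_WT and 7.89 to 15.8 CPM in IR_Matn3_ko. Only 3 of these 10 markers reached the level required for testing. Psmb9 overlaps Tap1, a peptide transporter gene, on the opposite strand by 212 bp.

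Psmb10, the inducible counterpart of Psmb7, had group means close together, though it ran from 15.2 to 21.4 CPM within IR_WT. It had 19.7, 17.0 and 20.2 CPM in sham_WT, 18.4, 15.2 and 21.4 CPM in IR_WT and 21.3, 18.5 and 20.9 CPM in IR_Matn3_ko, and all 3 groups overlapped. The log2 fold changes were -0.05 ± 0.14, which was 0.02 with no scaling factors and 0.07 without IR_WT 2, and 0.14 ± 0.14 (adjusted p of 0.876 and 0.718 by edgeR). An annotated antisense gene, Gm16156, overlaps it by 2710 bp, so its reads are uncertain if strand was not used.

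Both 11S activator subunits had higher group means in IR_WT than in sham_WT. Psme1 had 21.7, 22.5 and 25.3 CPM in sham_WT, 30.6, 26.7 and 25.6 CPM in IR_WT and 32.6, 27.6 and 29.5 CPM in IR_Matn3_ko, with no overlap between sham_WT and IR_WT (log2 fold change 0.25 ± 0.11, adjusted p = 0.242 by edgeR). Psme2 had 11.8, 12.8 and 13.8 CPM, then 12.6, 15.1 and 15.3 CPM, and in IR_Matn3_ko 17.8, 19.3 and 15.9 CPM, all above IR_WT (0.30 ± 0.13 against IR_WT, adjusted p = 0.353). Its fold change of 0.17 against sham_WT was -0.01 with the library set as a term, which then rests on IR_WT 1 alone. Psme2b, the second copy, had 4.86, 4.85 and 5.42 CPM, then 6.98, 5.08 and 4.78 CPM, and 7.04, 6.44 and 9.02 CPM. Reads of Psme2 and Psme2b can be shared, and Psme2b also overlaps Gm12185 on the same strand by 837 bp, so both are uncertain. The other regulators had small fitted values: Psme3, Psme4 (the large PA200 activator) and Psmf1 (the inhibitor PI31) had log2 fold changes between 0.03 and 0.15 in the first comparison and between 0.01 and 0.03 in the second.

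**Figure D4:**
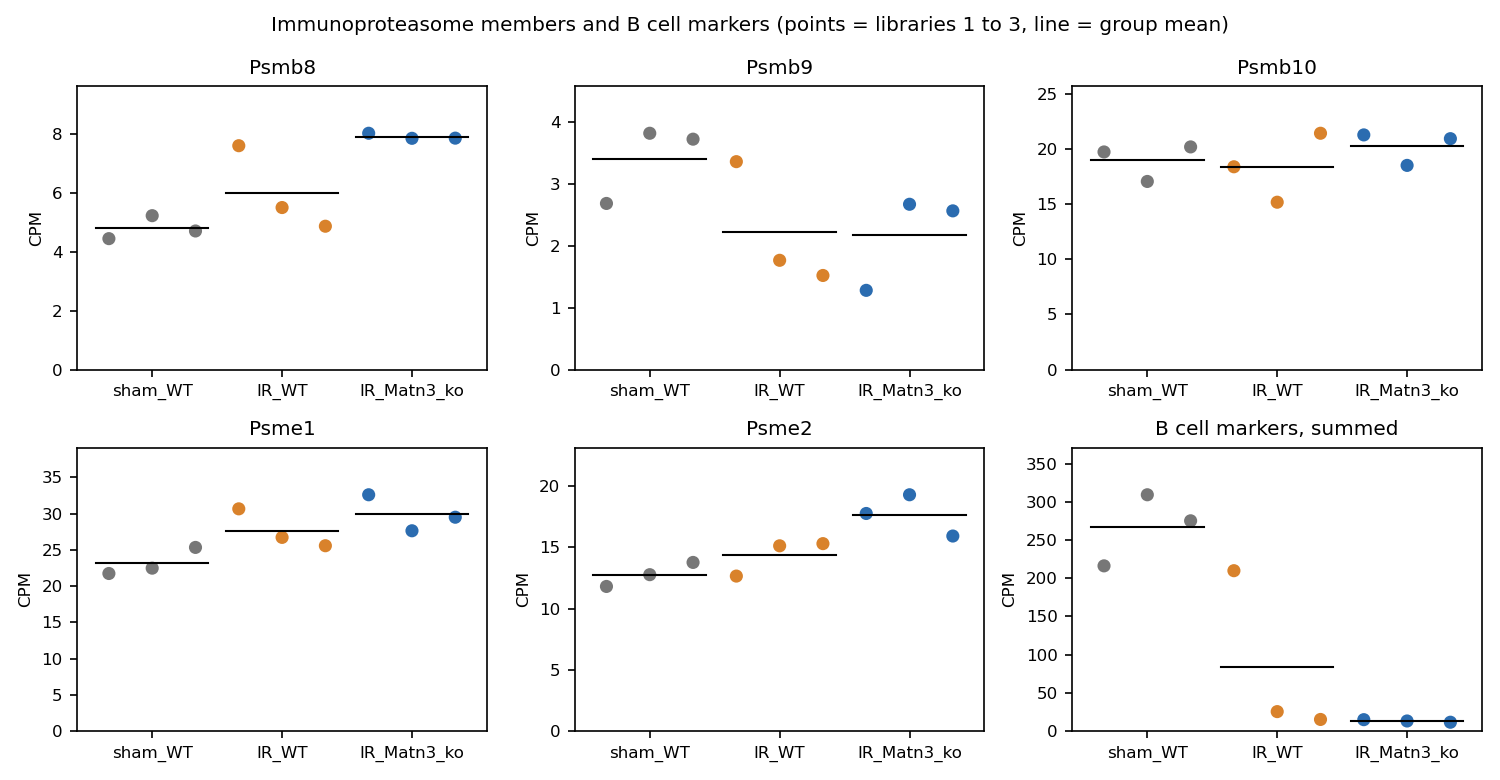
CPM of the 5 immunoproteasome members and the summed CPM of 12 B cell markers in each library (points, libraries 1 to 3 from left to right in each group; line, group mean). Psmb8 is at 7.84 to 8.02 CPM in IR_Matn3_ko, and Psmb9 is highest in sham_WT 2, sham_WT 3 and IR_WT 1, which also have high B cell sums, while sham_WT 1 has a high B cell sum with Psmb9 at 2.68 CPM.

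Each inducible subunit was set against the one it replaces, as a log2 ratio of FPKM, with a two-sided exact permutation test whose smallest p for 3 against 3 is 0.1. None of the 6 ratio comparisons reached it. Psmb8/Psmb5 was 0.0303, 0.0413 and 0.0321 in sham_WT, 0.0663, 0.0394 and 0.0335 in IR_WT, and the IR_Matn3_ko libraries had 0.0546, 0.0524 and 0.0596. The difference in mean log2 ratio was 0.38 for IR_WT against sham_WT (exact p = 0.4, adjusted over the 3 ratios 0.4), and 0.09 without IR_WT 1. For IR_Matn3_ko against IR_WT it was 0.32 (exact p = 0.4, adjusted 0.6), and the IR_Matn3_ko ratios were all above those of sham_WT.

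Psmb9/Psmb6 was 0.0292, 0.0519 and 0.0422 in sham_WT, 0.0394, 0.0187 and 0.0150 in IR_WT, and the IR_Matn3_ko libraries had 0.0108, 0.0229 and 0.0210. The log2 differences were -0.85 (exact p = 0.2, adjusted 0.3) and -0.36 (exact p = 0.6, adjusted 0.6), and the second was 0.05 without IR_WT 1. Psmb10/Psmb7 was 0.625, 0.604 and 0.572, then 0.557, 0.414 and 0.578, and 0.516, 0.381 and 0.517, with log2 differences of -0.23 (exact p = 0.2, adjusted 0.3) and -0.13 (exact p = 0.5, adjusted 0.6). The second was 0.02 without the library labelled IR_Matn3_ko 2. The size of a ratio depends on the length used. Per kilobase of principal transcript, Psmb10/Psmb7 was 0.277, 0.267 and 0.253 in sham_WT, below its FPKM ratio. Psmb8/Psmb5 was 0.0632, 0.0863 and 0.0671 there, above its FPKM ratio. Over the 3 pairs the inducible share of the cutting subunits was 13.6% to 14.6% in sham_WT, 11.1% to 15.4% in IR_WT and 11.7% to 13.8% in IR_Matn3_ko by FPKM. Per kilobase of principal transcript it was 11.2% to 12.6%, 9.04% to 12.8% and 9.38% to 10.9%.

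A single index summarised the contrast: the mean log2 CPM of the 5 immunoproteasome members less that of the 31 constitutive subunits, given as a description with no test. It was -2.85, -2.62 and -2.71 in sham_WT, -2.66, -2.96 and -2.99 in IR_WT, and the IR_Matn3_ko libraries had -2.82, -2.92 and -2.76. The groups overlapped. The IR_WT mean was 0.15 below that of sham_WT, as a difference of -0.15, and the difference was 0.06 with the library set as a term. IR_Matn3_ko was above IR_WT by 0.04, and this difference ran from -0.02 to 0.14 as single libraries were left out.

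Genes that control the immunoproteasome or use its products were read from lists, against a background of 4.06% of all genes called in IR_WT against sham_WT (2.54% higher) and 0% in IR_Matn3_ko against IR_WT. Of 9 tested genes of interferon control, Irf9, the DNA-binding part of the interferon-activated complex ISGF3, was the only one called: 17.3 ± 2.00 CPM in sham_WT and 28.4 ± 6.19 CPM in IR_WT (SD, n = 3; log2 fold change 0.71 ± 0.16, adjusted p = 0.0419 by edgeR). Irf9 stood at 37.9 ± 3.16 CPM in IR_Matn3_ko, where no gene of the list was called against IR_WT. Ifng, the gene of interferon gamma, was near the counting limit, with group means of 0 to 0.0457 CPM. Of 10 genes of MHC class I peptide loading none was called in either comparison. Of these, 6 had a log2 fold change above 0 in IR_WT against sham_WT (median 0.06), and all 10 in IR_Matn3_ko against IR_WT (median 0.20). Of all genes, 50.3% and 49.8% were above 0. B2m, the light chain of the MHC molecule, had a log2 fold change of -0.02 in IR_WT against sham_WT and 0.27 in IR_Matn3_ko against IR_WT (adjusted p of 0.948 and 0.313). Calr, a chaperone of the loading complex, had 0.19 and 0.17.

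Genes around the constitutive proteasome gave no call either, in any of 3 lists. The NRF1 list holds Nfe2l1, the factor that raises proteasome genes when the proteasome is overloaded, with its processing enzymes and ubiquitin shuttles. Of these, 0 of 13 were called, and Nfe2l1 itself had a log2 fold change of 0.04 ± 0.07 and then -0.06 ± 0.07. In IR_WT against sham_WT 12 of the 13 were above 0 (median 0.18), and in IR_Matn3_ko against IR_WT 9 were (median 0.07). Of all genes, 50.3% and 49.8% were above 0. The 2 of the list with the highest FPKM were Sqstm1, an autophagy receptor for ubiquitinated protein (0.29 ± 0.08, adjusted p = 0.0846 in IR_WT against sham_WT), and Nfe2l1. Of 11 tested assembly factors and accessory proteins 0 were called. In IR_WT against sham_WT 4 of the 11 were above 0 (median -0.03), and in IR_Matn3_ko against IR_WT 8 were (median 0.17). Those with the highest FPKM were Akirin2, which carries proteasomes into the nucleus, and Usp14, a deubiquitinase of the cap. They had log2 fold changes of 0.09 and -0.01 in IR_WT against sham_WT. Of 8 ubiquitin genes and enzymes 0 were called, with 4 above 0 in the first comparison (median -0.01) and 7 in the second (median 0.08). Ubb, a polyubiquitin gene, had a log2 fold change of -0.04 ± 0.10 in IR_WT against sham_WT. Of the microglial markers 7 of 10 were higher and 1 lower in all IR_WT than in all sham_WT libraries, with sums of 417 to 440 CPM in sham_WT, 575 to 666 CPM in IR_WT and 617 to 823 CPM in IR_Matn3_ko. Macrophage and monocyte markers had sums of 32.2 to 38.4, 98.0 to 117 and 183 to 232 CPM, with 5 of 10 higher in all IR_WT than in all sham_WT libraries and 5 of 10 in all IR_Matn3_ko than in all IR_WT libraries. Among all genes 13.1% were higher without overlap in the first comparison and 9.42% in the second. The part of immune cell number in the proteasome values was not tested.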

How the data were processed

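Poly(A)-selected, strand-marked RNA-seq libraries of 9 mice were analysed, grouped by sample title. Raw counts per gene were deposited by the authors without normalization, and FPKM values were deposited by the authors as fragments scaled to gene length and mapped total, per the file headers. The submitters' processing notes list HISAT2 2.0.4, StringTie 1.3.4d, cutadapt 1.9, edgeR, DESeq2 and UMI-tools without their roles, and a human build, GRCh38. All 46 members were found by identifier in GENCODE M21, a mouse GRCm38 annotation, 38 at identical coordinates, and 23 overlap another annotated gene. The sources used here do not say whether counting used strand or molecular identifiers. All per-sample columns were used.

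The 17247 genes reaching 0.5 FPKM in 3 or more libraries were tested with edgeR 4.0.16 (quasi-likelihood, TMM factors 0.949 to 1.07, 9 libraries in 1 model, 6 residual degrees of freedom, Benjamini-Hochberg over all genes, threshold 0.05). Standard errors come from the test. CPM of members and listed genes is TMM-scaled; CPM of Matn3 and of marker sums is relative to total counts. The index adds 0.5 CPM before log2. Alternatives were median-ratio and no scaling factors, other filters, DESeq2 1.42.0, limma 3.58.1 on log2(FPKM + 1) and log2(FPKM + 0.1), a replicate block, a library set term (small-intestine sum above 10 CPM), the compared groups alone, and each library left out. FPKM ratios also as CPM per kilobase were added after the data were seen. On simulated counts of 17247 genes with 100 genes changed 2-fold and 100 changed 4-fold, edgeR recovered 66 and 92 in IR_WT against sham_WT, with 7 false calls, and 51 and 85 in IR_Matn3_ko against IR_WT, with 5. Each comparison was simulated once, with the same means and dispersions in every group, so the comparisons differ there only by random draws. Unequal spread between groups was not simulated. Changes under 2-fold, the size fitted for the members, were not simulated, so recovery at that size is not known. No replicate pair agreed within counting noise (chi-square over its degrees of freedom 27.6 to 100).

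The members and lists were chosen with earlier results of these data known. Named genes were the immunoproteasome members and the subunits they replace, every called member, the 2 highest and 2 lowest fold changes in each comparison, the 3 highest and 3 lowest constitutive members by FPKM, members failing the filter, and up to 4 called genes of a pathway list or else its 2 highest by FPKM; other members are named as examples of their role, chosen after their values were seen, as was Ifng. Some listed genes are not reported here. Promoter motifs were searched on both strands of the RefSeq windows; those of the interferon-stimulated and CGCG elements were shortened by 1 or 2 letters after a first search with longer forms. Plots were drawn with matplotlib 3.10.9.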

Additional observations from a re-analysis of the deposited data

How the results depend on the processing

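Calls rested on few genes. The 1 member called between IR_WT and sham_WT, Psmd5, fell to 0 without the filter (adjusted p 0.0601 by edgeR). Leaving out 1 library gave 0 to 1 calls. The call was kept with both other scalings, filterByExpr, DESeq2, both limma fits and the compared groups alone. The library set term rests on IR_WT 1 in this comparison, so only its fold change is given above. With the replicate block the count was 0 in IR_WT against sham_WT (adjusted p 0.0747) and 0 in IR_Matn3_ko against IR_WT. The labels do not say that a replicate number pairs mice. Same-numbered libraries deviated with correlations of -0.12, -0.02 and 0.06, and of -0.22, 0.16 and -0.17. These differed in sign, and with 3 libraries a group they cannot exclude pairing. For IR_Matn3_ko against IR_WT, DESeq2 gave 1 call and all other settings 0. With the library set term the index difference for IR_WT against sham_WT was 0.0637, against -0.25 to -0.09 when 1 library was left out.

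Of the named members' fold changes, 656 of the values under alternatives kept direction and call, and 19 reversed, none of them a called gene. In IR_WT against sham_WT, Psmb10 was 0.0198 with no scaling factors, 0.0288 and 0.0310 in the limma fits and -0.179 to 0.0680 as 1 library was left out (0.0680 without IR_WT 2). Psmb5 was 0.0011, 0.0160 and 0.0163 in the same fits and -0.141 to 0.0231 (0.0231 without IR_WT 1). With the set term Psmc5 was -0.0859 and Psme2 -0.0145, and Psme2b ran from -0.0293 without IR_WT 1 to 0.258. In IR_Matn3_ko against IR_WT, Psmb9 was 0.0447 with no scaling factors, 0.0075 and 0.0200 in the limma fits, 0.40 with the set term, and -0.235 to 0.41 as 1 library was left out (0.41 without IR_WT 1, 0.24 without IR_Matn3_ko 1). Psmc5 was 0.0093 with no scaling factors, and Psmd10 ran from -0.189 to 0.0050 (without IR_Matn3_ko 3). The ratios Psmb9/Psmb6 and Psmb10/Psmb7 ranged from -0.65 to 0.0485 and from -0.28 to 0.0151. The cause was not tested. CPM per kilobase changed no ratio's direction.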

Other observations

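Psmc3ip, a member by name only, had 1.34 to 2.76 CPM in the 9 libraries, with log2 fold changes of -0.27 ± 0.29 in IR_WT against sham_WT and 0.43 ± 0.29 in IR_Matn3_ko against IR_WT (adjusted p of 0.662 and 0.564 by edgeR). Psmd10, known as the oncoprotein gankyrin and a 19S assembly chaperone, was 1 of 3 tested members with a fitted value below 0 in the second comparison (-0.08 ± 0.14), and Psmd9, the third chaperone, had 0.18 ± 0.12 and 0.02 ± 0.12. Pomp, which guides assembly of the 20S core, had 62.2 ± 5.48 CPM in sham_WT, 51.1 ± 3.54 CPM in IR_WT and 56.0 ± 3.54 CPM in IR_Matn3_ko (SD, n = 3; log2 fold change -0.28 ± 0.09 in IR_WT against sham_WT, adjusted p = 0.121). Vcp, the segregase that extracts ubiquitinated proteins for the proteasome, had 0.35 ± 0.09 in the same comparison (adjusted p = 0.0609). These genes were picked out after their values were seen.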
